A study of Mus musculus with 8 samples.

Results

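Cathepsins A, B, C, D, F, H, L, O and Z and legumain are lysosomal proteases. Their genes were examined here in mouse embryonic stem cells (mESCs) that were sorted by a KLF3-GFP reporter or overexpressed KLF3. The 10 genes were picked by symbol (Ctsa, Ctsb, Ctsc, Ctsd, Ctsf, Ctsh, Ctsl, Ctso, Ctsz and Lgmn) from 14709 genes listed in 1 or both of the 2 deposited tables. All 10 were listed for sorted cells and 9 for overexpressing cells, where Ctso was not listed. In the first experiment, 500 KLF3-GFP-positive or KLF3-GFP-negative cells per sample were sorted and sequenced by Smart-seq2, which amplifies full-length cDNA from few cells. In the second, poly(A) RNA was sequenced 72 hours after overexpression of KLF3 or, as control, of GFP. Each of the 4 groups had 2 samples, and the tables give the authors' mean of them in FPKM, which is a read level corrected for transcript length and library size.

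All samples carry the strain label C57BL/6(F) x 129/sv(M) and a developmental label of 3.5 days, and all cells were grown on gelatin with serum and leukaemia inhibitory factor. Both sorted groups came from a line with a reporter under the CAGGS promoter, in which Emerald GFP is joined to an N-terminal fragment of KLF3 that lacks the DNA-binding domain, and which also carries DsRed from the EF1α promoter. The overexpressing cells were clones of the R26 line, which has a doxycycline-dependent transactivator at Rosa26, with codon-optimized Klf3 or GFP placed at the Col1a1 locus and induced by doxycycline. These clones were selected on feeder cells. The spread between the 2 samples of a group is not known, so that no test, SD or interval stands beside any difference below, and the number of reads behind each value is also unknown.

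Lysosomal proteases are made as inactive precursors in the endoplasmic reticulum. Most are marked with mannose 6-phosphate in the Golgi, carried to acidic compartments by receptors, and activated there by removal of a propeptide. Cathepsins B, C, F, H, L, O and Z are cysteine proteases of the papain family, cathepsin D is an aspartic protease, cathepsin A is a serine carboxypeptidase, and legumain is a cysteine protease that cuts after asparagine. In the early embryo, high activity of lysosomal proteases is known from the visceral endoderm, an absorptive epithelium that takes up and degrades maternal proteins and that descends from the primitive endoderm.

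The genes lie on 8 chromosomes of mm10. In the GENCODE M21 annotation of that assembly, Ctsl spans chr13:64359337-64370890 (minus strand), Ctsh chr9:90054152-90076089 (plus strand), Lgmn chr12:102394084-102439813 (minus strand) and Ctsz chr2:174427493-174439039 (minus strand). Ctsa also lies on chromosome 2 (164832873 to 164841032), Ctsc and Ctsd lie on chromosome 7 (88278085 to 88310888 and 142375911 to 142388038), Ctsb on chromosome 14 (63122462 to 63145923), Ctsf on chromosome 19 (4855130 to 4860918) and Ctso on chromosome 3 (81932601 to 81956725). No stretch of 50 bases was shared between transcripts of different members. Transcripts of Ctsd shared 32.4% of their 50-base stretches with Gm49369, a gene model on the same strand that overlaps it, so that reads may have been split between them and the level of Ctsd is uncertain. Gm49369 is not listed by that name for sorted or overexpressing cells. The locus listed with the FPKM of Ctsd, 142371147 to 142388038, extends past the M21 model. How far a split of reads moved the FPKM of Ctsd was not tested. For Ctsl the shared part was 6.46%, most of it with the processed pseudogene Gm49230, and for each of the other members it was at most 0.45%.

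The sequences before the start sites were searched because the hexamer CACGTG, the core of the element bound by TFEB and its relatives, is known from promoters of lysosomal genes, and because KLF proteins bind CACCC-type and GC-rich elements. RefSeq windows on GRCm38.p6 of 250 bases before a start site were matched for 8 members, in 10 windows (Ctsb and Ctsh were not matched). CACGTG, which reads the same on both strands, was found in 5 of the 10 windows and in 6.02% of all 32851 windows. The extended form TCACGTG, searched on both strands and always overlapping CACGTG, was in 3 of the 10 windows and in 3.13% of all. The stretches around the matches are shown to let the flanks be compared, with CACGTG in capitals, 5′ to 3′ on the strand of the gene.
Ctsd, chr7:142387908-142387937, minus strand: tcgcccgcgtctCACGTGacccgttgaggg
Ctsd, chr7:142388055-142388077, minus strand: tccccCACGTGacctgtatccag
Ctsa, chr2:164833749-164833778, plus strand: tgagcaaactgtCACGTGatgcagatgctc
Lgmn, chr12:102439124-102439153, minus strand: tggaatgtctgtCACGTGgtccattttata
Ctsl, chr13:64370739-64370768, minus strand: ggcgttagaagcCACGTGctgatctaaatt
Ctsf, chr19:4855074-4855103, plus strand: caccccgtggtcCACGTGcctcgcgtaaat
The first bases of these matches lie 98 and 245 bases before the RefSeq start for Ctsd, 12 for Ctsa, 49 for Lgmn, 236 for Ctsl and 79 for Ctsf. The windows of Ctsa and Lgmn shown here belong to second start sites, 900 and 721 bases inside the GENCODE gene model, and the start of the Ctsl window lies 370 bases inside it. The starts of Ctsd and Ctsf lie 211 and 35 bases inside their models. Of the matches shown, only that of Ctsf and the Ctsd match at 245 bases therefore lie before the GENCODE M21 gene model, and the others lie within it. For Ctsl the locus listed with the FPKM differs from that model and ends at 64370306, so that the Ctsl match lies before the listed locus.

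The pattern CCNCNCCC, which covers CACCC-type and GC-rich elements and was searched on both strands, was in 6 of the 10 windows and in 45.9% of all windows. There were 7 matches in the window of Ctsf, 4 in that of Ctsc, 2 each in those of Ctsd and Ctsz, 1 each in 1 window of Ctsa and of Lgmn, and 0 in those of Ctsl and Ctso. The windows of Ctsz and Ctsc are shown, with the matches in capitals, as those with a match that end exactly at the outer end of the gene model.
Ctsz, chr2:174439040-174439289, minus strand: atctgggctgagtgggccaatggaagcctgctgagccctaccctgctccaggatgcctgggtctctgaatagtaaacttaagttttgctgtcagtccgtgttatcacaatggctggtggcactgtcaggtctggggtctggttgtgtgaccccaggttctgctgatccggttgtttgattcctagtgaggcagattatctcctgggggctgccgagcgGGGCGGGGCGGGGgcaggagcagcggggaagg
Ctsc, chr7:88277835-88278084, plus strand: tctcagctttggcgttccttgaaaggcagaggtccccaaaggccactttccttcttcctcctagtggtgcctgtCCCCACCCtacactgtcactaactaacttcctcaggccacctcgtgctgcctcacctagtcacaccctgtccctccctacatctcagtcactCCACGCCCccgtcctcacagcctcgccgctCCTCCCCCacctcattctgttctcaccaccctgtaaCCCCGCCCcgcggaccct
The GATA-type hexamer AGATAA was found in the Ctsz window only among the members, and in 9.99% of all windows. Such matches describe the letters of these windows and not bound sites.

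In KLF3-GFP-positive compared with KLF3-GFP-negative mESCs, 8 of the 10 genes were higher by more than 2-fold. Ctsl and Ctsh showed the largest differences, followed by Lgmn and Ctsc, whereas Ctsf and Ctso differed little. Differences are given as log2(FPKM + 1) of KLF3-GFP-positive minus KLF3-GFP-negative cells, a scale that understates the change of genes with low levels, and genes past 1 or -1 on it are called upregulated or downregulated. Of the 9212 genes whose mean over the conditions reached 1 FPKM, 13.8% were upregulated and 8.32% downregulated, and their median difference was 0.03. Ctsh, at 0.99 FPKM in KLF3-GFP-negative cells, passed this minimum only through the KLF3-GFP-positive cells, where it was high, and Ctso did not pass it.

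Ctsl encodes cathepsin L, an endopeptidase of broad specificity. Its level was 25.4 FPKM in KLF3-GFP-negative mESCs against 1068 FPKM in KLF3-GFP-positive mESCs, which is 42.0-fold in plain FPKM and 5.34 on the log2 scale. Only 14 genes of the table had a larger difference. With this level Ctsl ranked 170th of 13056 genes in KLF3-GFP-positive cells, against 2397th in the negative cells.

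Ctsh encodes cathepsin H, mainly an aminopeptidase. Its level was 0.99 FPKM in KLF3-GFP-negative mESCs against 68.9 FPKM in KLF3-GFP-positive mESCs, a difference of 5.13 that was the 17th largest of the table. Its ratio in plain FPKM of 69.6 was the highest among the 10 genes. Lgmn, which encodes legumain and whose product also processes cathepsins B, H and L, rose from 11.7 to 259.5 FPKM (log2 difference 4.36). Ctsc encodes cathepsin C, the dipeptidyl peptidase that activates granule serine proteases. It rose from 4.57 to 93.3 FPKM (log2 difference 4.08), and in both Lgmn and Ctsc the ratio was above 20 (22.1 and 20.4).

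The other members differed less. Ctsz, which encodes the carboxypeptidase cathepsin Z, rose from 57.9 to 492.6 FPKM (log2 difference 3.07). Ctsa, whose product also protects the sialidase NEU1 and β-galactosidase GLB1 in a lysosomal complex, rose from 11.1 to 66.9 FPKM (log2 difference 2.49). Ctsd, the main lysosomal aspartic protease, rose from 23.5 to 120.8 FPKM (log2 difference 2.31). Ctsb, which encodes the endopeptidase and carboxypeptidase cathepsin B, rose from 11.9 to 46.8 FPKM (log2 difference 1.89), the smallest change among the upregulated members. Each of these 4 genes still stood within the highest 4.32% of all differences. Ctsf had 1.44 and 1.81 FPKM (log2 difference 0.20), and Ctso had 0.39 FPKM in both conditions.

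**Figure D1:**
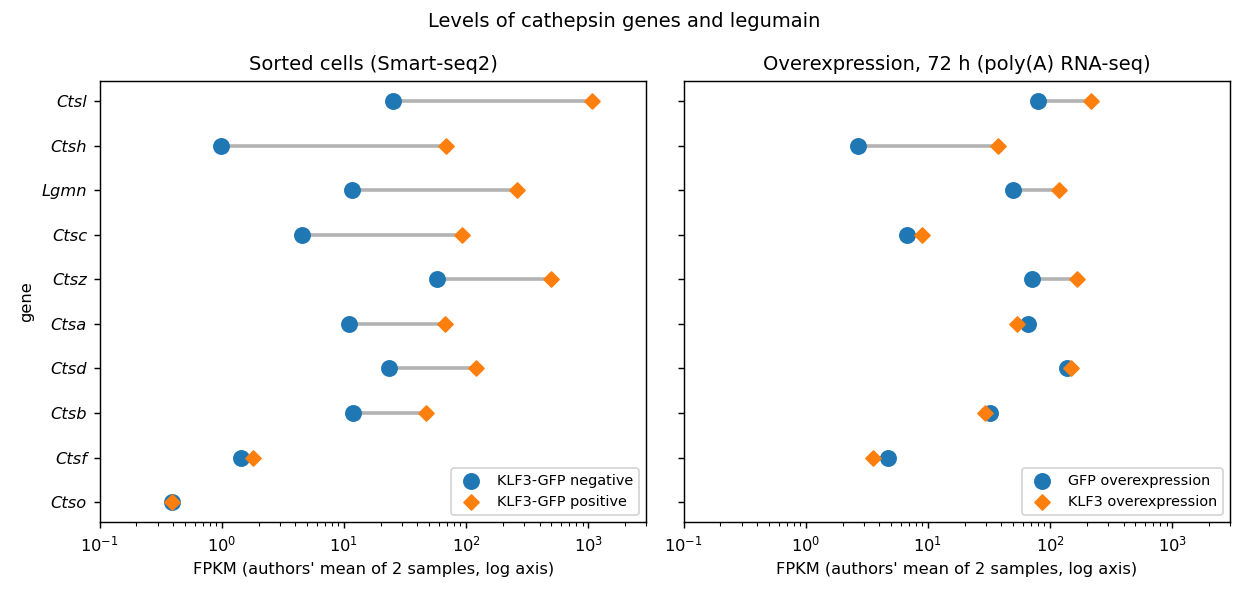
FPKM of each gene on a log axis, as the authors' mean of 2 samples, for KLF3-GFP-negative (circles) and KLF3-GFP-positive cells (diamonds) on the left and for GFP (circles) and KLF3 overexpression (diamonds) on the right. In sorted cells the markers lie apart for all but Ctsf and Ctso, and in overexpressing cells Ctsh shows the longest line, from 2.67 to 37.6 FPKM. Ctso has a single value of 0.39 FPKM in both sorted groups and is not listed on the right.

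The order of the genes by level also differed between the sorted groups. In KLF3-GFP-negative cells Ctsz was highest with 57.9 FPKM, followed by Ctsl (25.4 FPKM) and Ctsd (23.5 FPKM). Ctsb, Lgmn and Ctsa came next and lay close together, between 11.1 and 11.9 FPKM, and their order cannot be read without the spread between samples. In KLF3-GFP-positive cells Ctsl was highest, followed by Ctsz, Lgmn and Ctsd. Ctsh was 9th in negative cells and 6th in positive cells, where it lay close to Ctsa (68.9 and 66.9 FPKM), so that their order cannot be read either. Ctsb, which lay close to Lgmn and Ctsa in negative cells, was 8th in positive cells. Its level was higher there, but other members differed more.

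Summed over the 10 genes, the level was 148.9 FPKM without and 2218 FPKM with the reporter signal, a ratio of 14.9. Without Ctsl the ratio was 9.32. The summed FPKM of the 10 genes made up 0.0165% of the table's total in the negative cells, against 0.234% in the positive cells. The share of Ctsl among the 10 genes was 17.1% and 48.1%, whereas that of Ctsz was 38.9% and 22.2%.

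In overexpressing cells, 4 of the 9 listed members were higher by more than 2-fold after 72 hours of KLF3 compared with GFP (Ctsh, Ctsl, Lgmn and Ctsz), and none was lower by that much. Of these, only Ctsh was past the limit under every processing alternative, since Ctsl, Lgmn and Ctsz fell short of it when the columns were scaled to the same sum, and Ctsz also with quantile normalization. Ctsa, Ctsb, Ctsc, Ctsd and Ctsf stayed within a 2-fold difference, although Ctsa, Ctsb, Ctsc and Ctsd had been upregulated in sorted cells. Of 11179 genes that reached a mean of 1 FPKM in this table, 6.60% were upregulated and 10.1% downregulated, with a median difference of -0.18. All 9 listed members passed this minimum in both conditions.

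The level of Ctsh was 2.67 FPKM with GFP against 37.6 FPKM with KLF3, a ratio of 14.1. Its log2 difference of 3.39 was the 8th largest of the table. Ctsl had 79.9 and 218.3 FPKM (log2 difference 1.44), Lgmn had 49.4 and 118.5 FPKM (1.25), and Ctsz had 71.5 and 167.5 FPKM (1.22). These 3 genes stood within the highest 3.69% of all differences. Relative to the median of all genes the differences were 3.57 for Ctsh, 1.62 for Ctsl, 1.43 for Lgmn and 1.40 for Ctsz.

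Ctsc had 6.79 FPKM with GFP against 8.90 FPKM with KLF3 (log2 difference 0.35). Ctsd, the highest of the members in GFP-overexpressing cells, had 137.8 and 148.6 FPKM (0.11). Ctsb had 32.2 and 29.2 FPKM (-0.13), Ctsa had 66.1 and 53.7 FPKM (-0.29) and Ctsf had 4.75 and 3.53 FPKM (-0.34). The sign of the difference was not stable for Ctsb, which was positive with median-ratio scaling or removal of the span trend, for Ctsc, which was negative with columns scaled to the same sum, or for Ctsd, which was negative with that scaling and with quantile normalization.

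**Figure D2:**
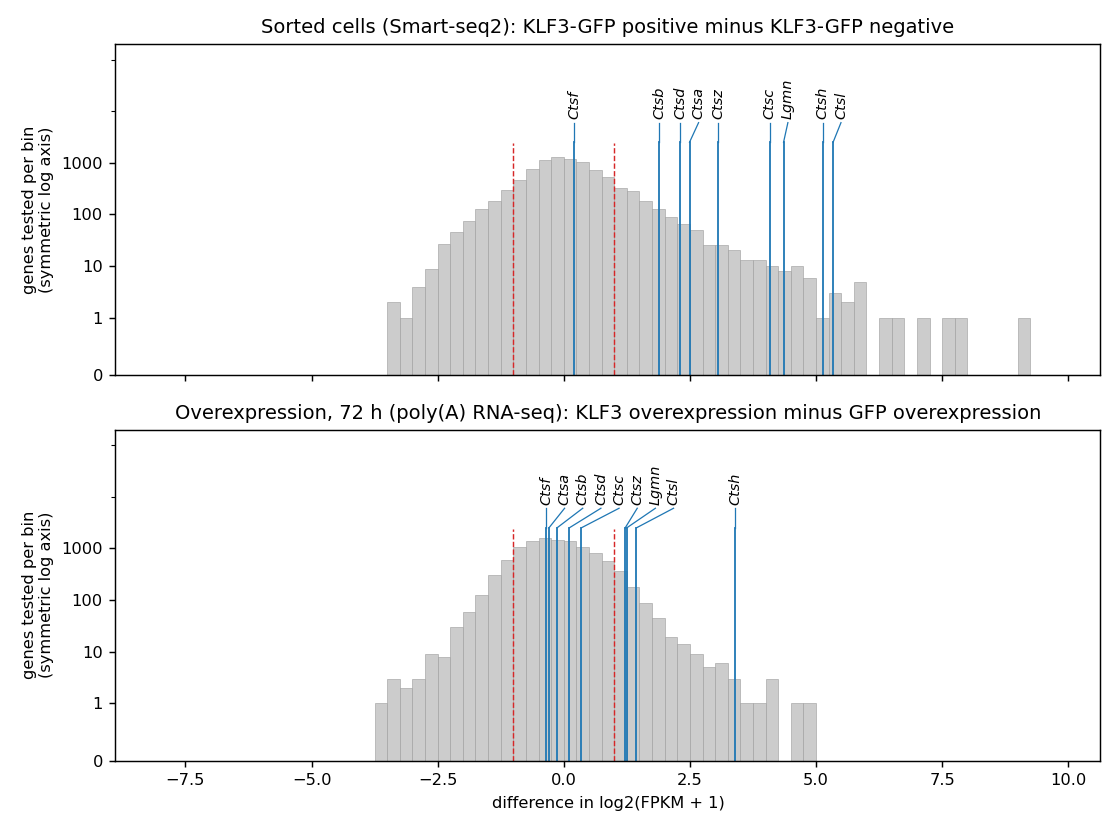
Number of genes tested (symmetric log axis) by their difference in log2(FPKM + 1) in bins of 0.25, with the tested members as blue lines and the 2-fold limits as dashed lines, for sorted cells (upper panel, KLF3-GFP-positive minus KLF3-GFP-negative) and overexpressing cells (lower panel, KLF3 minus GFP). In sorted cells 8 members lie to the right of the limit, from 1.89 (Ctsb) to 5.34 (Ctsl). In overexpressing cells 4 do, with Ctsh at 3.39 apart from the rest, and of these Ctsl, Lgmn and Ctsz fall to the left of it with columns scaled to the same sum.

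The summed level of the 9 members was 451.0 FPKM with GFP against 785.9 FPKM with KLF3, a ratio of 1.74. Their part in the table's total was 0.0736% and 0.0941%. Ctsd held the first place in GFP-overexpressing cells, with 30.6% of the summed level, and Ctsl in KLF3-overexpressing cells, with 27.8%. Ctsh went from 0.59% to 4.78% of the sum. The libraries of the experiments were made by different protocols, so that levels were compared only within a table.

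**Figure D3:**
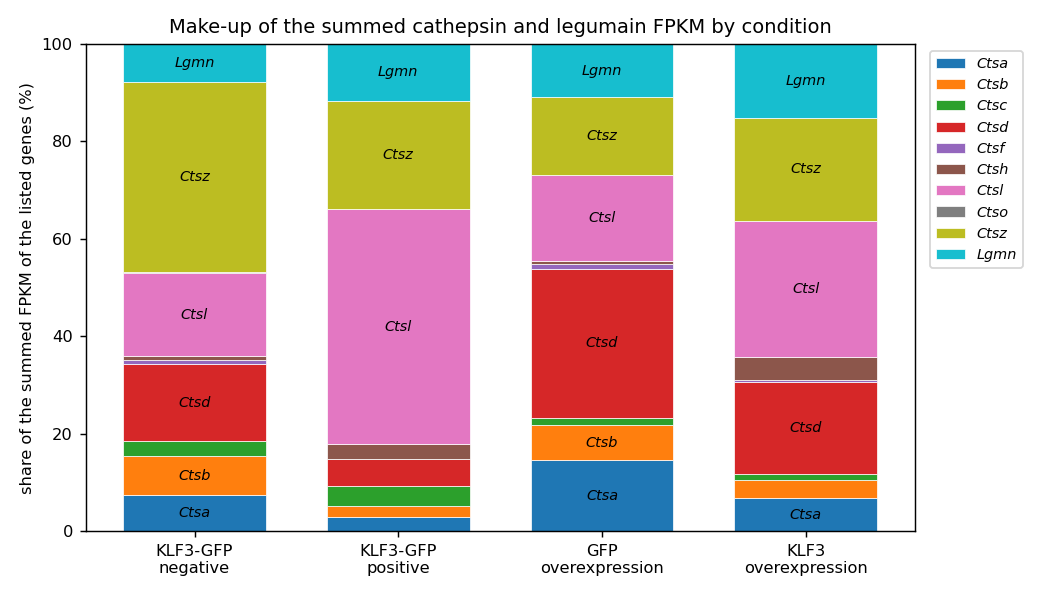
Share of each gene in the summed FPKM of the listed cathepsin genes and legumain (%), for each condition, from the authors' mean of 2 samples. The share of Ctsl is 17.1% without and 48.1% with the reporter signal, and 17.7% and 27.8% in GFP- and KLF3-overexpressing cells, where that of Ctsd is 30.6% and 18.9%.

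Several values of the overexpression table bear on these differences. The total FPKM of the table was 612621 with GFP against 834882 with KLF3, and 96 genes of ribosomal proteins held 28.9% and 38.9% of it. When all genes tested were split by genomic span into 5 groups of like size, the median difference was 0.35 for the shortest genes and -0.49 for the longest. Of the upregulated members, Ctsl (7094 bases in the table) was among the shortest genes, and its difference with the trend removed was 1.28. Lgmn (45731 bases) was the longest member, and its difference with the trend removed was 1.70. The Y-linked genes Eif2s3y (30.9 and 1.67 FPKM), Uty and Ddx3y (3.56 and 3.34 FPKM in GFP-overexpressing cells but 0.1, the minimum listed, with KLF3) differed between the clones, but in sorted cells Eif2s3y had 15.6 and 16.6 FPKM. The part of these features in the differences of the cathepsin genes was not tested. Klf3 itself had 58.7 and 47.8 FPKM, which does not check the label, since the transgene is codon-optimized and its reads may not align to Klf3. In sorted cells Klf3 had 107.0 and 122.3 FPKM, to which reads of the reporter may add.

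**Figure D4:**
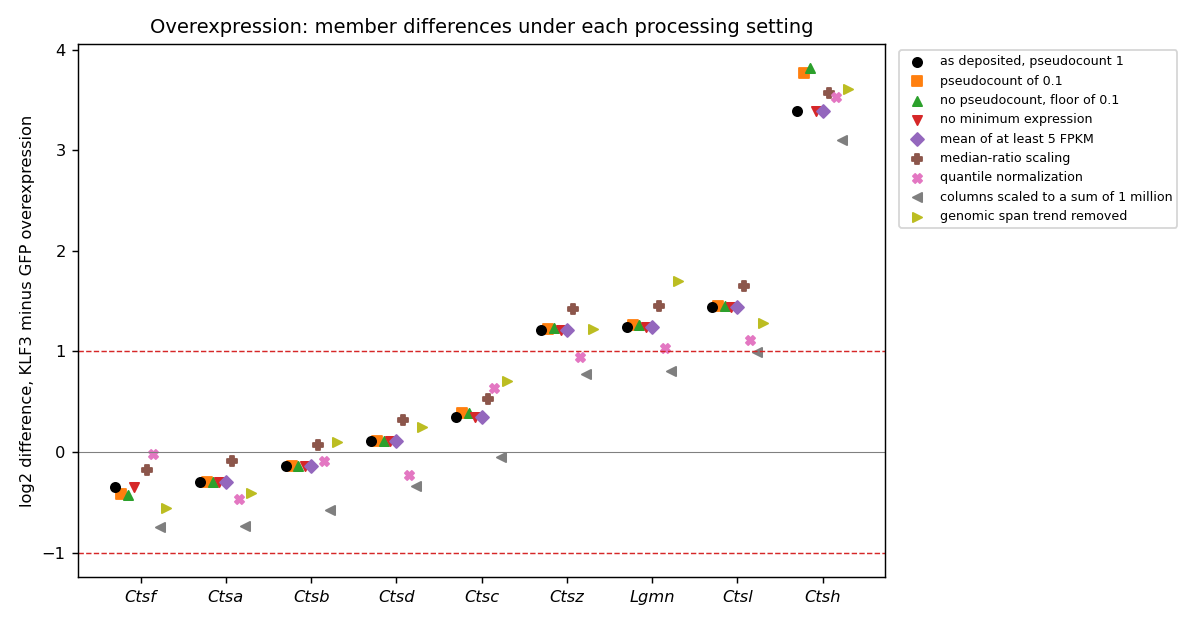
Difference of each member in the overexpression experiment (KLF3 minus GFP, log2 scale) as deposited with a pseudocount of 1 (black circles) and under 8 alternative settings, with dashed lines at 1 and -1. Ctsh lies above 3 in all of them, the lowest values of Ctsl, Lgmn and Ctsz are 0.998, 0.81 and 0.78, and Ctsb, Ctsc and Ctsd change sign between settings.

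Cysteine cathepsins and legumain are held in check by cystatins, and 2 of these genes were tested in sorted cells. Cst3, which encodes the secreted cystatin C, had 126.5 FPKM in negative against 1148 FPKM in positive cells (log2 difference 3.17). Cstb, which encodes the cytosolic cystatin B, had 266.4 and 1404 FPKM (2.39). Summed, these inhibitors showed a ratio of 6.49. The 8 cysteine proteases among the members (without Ctsa and Ctsd) had a summed level of 0.291 times that of the inhibitors in negative against 0.796 times in positive cells, and the 7 listed for overexpressing cells had 1.14 times with GFP against 2.02 times with KLF3. These are ratios of summed RNA levels, and not every inhibitor need act on every protease in the sum. With KLF3 overexpression, Cst3 had 101.3 and 114.1 FPKM (0.17) and Cstb had 116.2 and 175.3 FPKM (0.59), so neither was past the limit. Fetub, the remaining gene of the hand-written inhibitor list tested in overexpressing cells, had 3.13 and 2.39 FPKM. Whether its product acts on cathepsins was not examined.

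A hand-written list of genes around the tagging and sorting of lysosomal enzymes was examined next. In sorted cells 11 of 21 tested were upregulated (52.4%, beside 13.8% of all genes tested) and none was downregulated. Igf2r, the large mannose 6-phosphate receptor, showed the largest difference, from 4.38 to 45.3 FPKM (log2 difference 3.10). Nagpa (5.26 and 25.2 FPKM) and Gnptg (6.05 and 25.7 FPKM), which act in making the mannose 6-phosphate tag, followed. With KLF3 overexpression none of 22 was upregulated and 3 were downregulated (13.6%, beside 10.1% of all genes tested). These 3 were Igf2r (7.38 and 2.79 FPKM, log2 difference -1.14), Ccpg1 (20.5 and 8.79 FPKM, -1.14) and Gnptab (9.13 and 3.65 FPKM, -1.12). A role of Ccpg1 in tagging or sorting is not established here, and the count includes it. Over the alternatives, between 0 and 8 genes of the list were downregulated and at most 1 was upregulated, so that the call of the list depended on the processing.

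Among other lysosomal peptidases and the partners of cathepsin A, 4 of 10 tested were upregulated in sorted cells (40.0%, beside 13.8% of all genes tested). Their median was 0.80. Ifi30, the lysosomal thiol reductase, rose from 32.1 to 366.4 FPKM (log2 difference 3.47), Neu1 from 4.51 to 52.7 FPKM (3.28) and Tpp1, the tripeptidyl peptidase, from 2.31 to 26.9 FPKM (3.08). Glb1, the other partner of cathepsin A, had 5.70 and 10.3 FPKM (0.76). With KLF3 overexpression none of 10 was past the limit in either direction, except that 2 were downregulated with columns scaled to the same sum and 1 with the span trend removed. The largest differences were those of Glb1 (-0.91), Tpp1 (-0.90) and Dpp7 (0.65).

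The cathepsin genes were set beside the remaining lysosomal hydrolases and the subunits of the proton pump that acidifies the lysosome. In sorted cells, 14 of 25 hydrolases tested (56.0%, median 1.07) and 12 of 18 pump genes (66.7%, median 1.24) were upregulated. Among all genes tested the share was 13.8%. None of either list was downregulated. Hexa (10.2 and 81.0 FPKM) and Ppt1 (4.62 and 20.6 FPKM) were among the hydrolases with the largest differences, and Atp6ap1 (4.13 and 31.6 FPKM), Atp6v0b (229.4 and 1079 FPKM) and Atp6v0c (5.10 and 27.3 FPKM) led the pump genes. The median of the 9 cathepsin genes tested was 3.07, but no test of this difference can be made without replicates. With KLF3 overexpression, none of 29 hydrolases was upregulated and 4 were downregulated (13.8%, beside 10.1% of all genes tested), with a median of -0.34 beside -0.18. Manba fell from 43.2 to 16.3 FPKM, Asah1 from 63.9 to 25.8 FPKM and Gm2a from 10.8 to 4.02 FPKM. Over the alternatives between 2 and 9 were downregulated. Of 18 pump genes, Atp6v0a1 (7.41 and 18.1 FPKM) was the only one past the limit, a share of 5.56% beside 6.60% of all genes tested. Over the alternatives between 0 and 3 pump genes were upregulated and up to 2 were downregulated. Atp6v0b (72.9 and 135.7 FPKM) and Atp6v1a (24.6 and 13.1 FPKM) followed. The median of the members was 0.35 in this table, and -0.05 with columns scaled to the same sum.

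Transcription of many lysosomal genes is known to be driven by the MiT/TFE factors. Tfec, a factor of this family, showed the largest difference among the 11 genes tested of the factors and their control in sorted cells, from the lowest value of 0.1 to 27.3 FPKM (log2 difference 4.69). Mcoln1, a lysosomal calcium channel, had 17.8 and 45.6 FPKM (1.31), and Rragc, a GTPase of nutrient sensing, had 2.60 and 7.08 FPKM (1.17). Thus 3 of the 11 genes were upregulated (27.3%, beside 13.8% of all genes tested), and between 2 and 5 over the alternatives. The 1 gene downregulated (9.09%, beside 8.32% of all genes tested), Mtor, which was named after its values were seen, had 22.6 and 10.4 FPKM (-1.05). With KLF3 overexpression, Tfec had 0.31 and 3.40 FPKM (1.75) and was the only 1 of 14 upregulated (7.14%, beside 6.60% of all genes tested). Rragb (-1.39), Fnip1 (-1.12) and Zkscan3 (-1.05) were downregulated (21.4%, beside 10.1%). Over the alternatives between 1 and 6 were downregulated and between 0 and 2 upregulated, where Tfec did not reach a minimum of 5 FPKM. In both experiments Tfec was below 1 FPKM in the negative or GFP-overexpressing cells, so that it passed the minimum only through the cells where it was high. The other factors of the family were chosen for naming after their values were seen. Tfeb had 2.2 and 4.34 FPKM in sorted and 10.7 and 16.4 FPKM in overexpressing cells. Tfe3 had 4.54 and 6.05 FPKM in sorted cells, but 31.4 FPKM with GFP and 27.8 FPKM with KLF3. Mitf was lower in both experiments, with 0.63 and 0.11 FPKM in sorted cells, below the minimum, and 2.25 and 0.96 FPKM in overexpressing cells.

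**Figure D5:**
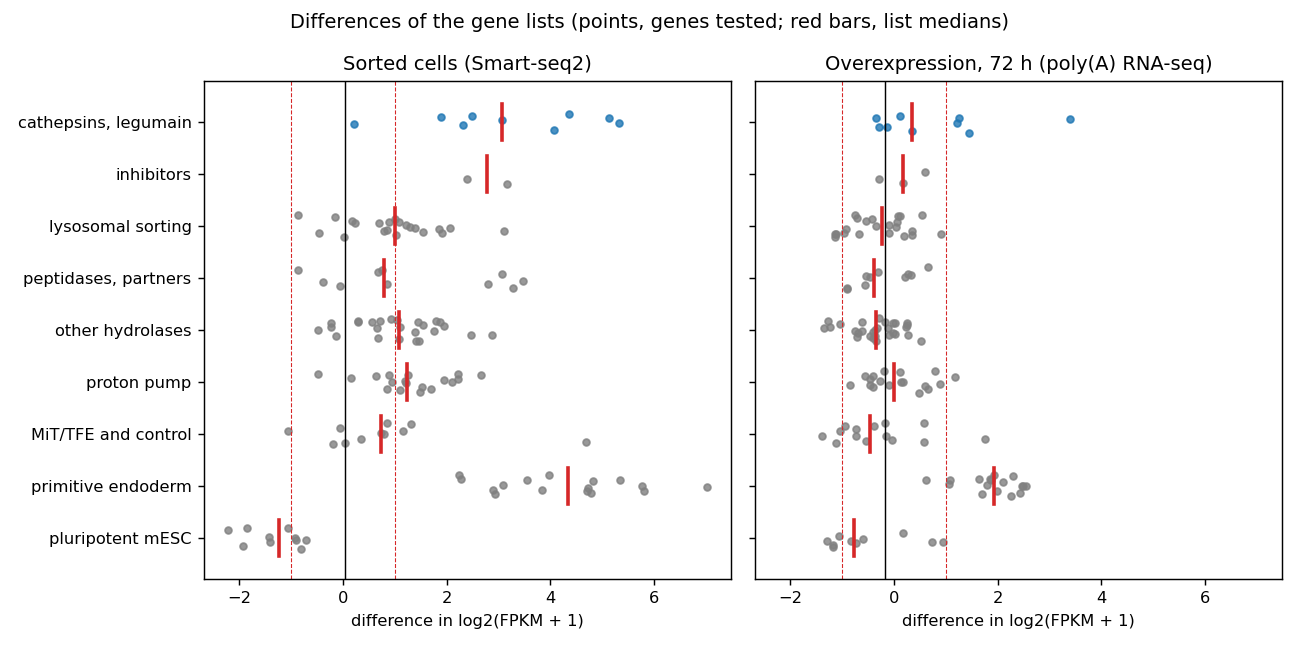
Differences in log2(FPKM + 1) of the genes tested in each list (points) with the list median (red bars), the median of all genes tested (black line) and the 2-fold limits (dashed lines), in sorted and overexpressing cells. In sorted cells the medians are 3.07 for the cathepsins and legumain, 1.07 for other hydrolases and 4.34 for primitive endoderm markers, and in overexpressing cells 0.35 (-0.05 with columns scaled to the same sum), -0.34 and 1.93.

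The identity of the cells was checked with marker genes. Pou5f1 (Oct4), the defining factor of pluripotent cells, had 114.6 and 59.4 FPKM in negative and positive sorted cells, and 883.2 and 989.7 FPKM in GFP- and KLF3-overexpressing cells, so that all 4 groups expressed it. Of 10 mESC markers, 6 were downregulated in sorted cells (beside 8.32% of all genes tested), led by Tdgf1 (324.0 and 68.9 FPKM), Sox2 and Nanog (20.8 and 5.03 FPKM). With KLF3 overexpression 4 were downregulated (beside 10.1% of all genes tested), led by Nanog (254.5 and 102.6 FPKM), Esrrb and Klf4. Over the alternatives the latter count lay between 1 and 7. In overexpressing cells 3 of the 10 were higher with KLF3, all within the limit. These were Utf1 (203.7 and 394.7 FPKM, log2 difference 0.95), Dppa5a (3794 and 6334 FPKM, 0.74) and Pou5f1.

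Markers of primitive and extra-embryonic endoderm were examined beside the cathepsin genes. All 18 were listed in both tables. In sorted cells the 16 that passed the minimum were upregulated, beside 13.8% of all genes tested, and their median was 4.34. Over all 18 genes the summed level was 468.0 FPKM in negative against 3884 FPKM in positive cells. Most of the former was Apoe (420.1 and 1995 FPKM), and without it the sums were 47.9 and 1889 FPKM. Of the 18 genes, 10 were below 1 FPKM in negative cells, so that those of them that passed the minimum did so only through the cells where they were high. Dab2, an endocytic adaptor, had 0.78 and 232.8 FPKM, Col4a1, a basement membrane collagen, 1.47 and 137.7 FPKM, and Amn, part of the cubilin receptor, 2.39 and 184.9 FPKM. The factors Gata4 (1.07 and 23.4 FPKM) and Sox17 (2.76 and 53.2 FPKM) were higher as well. With KLF3 overexpression, 16 of 17 tested were upregulated (94.1%, beside 6.60% of all genes tested), with a median of 1.93. Amn (1.18 and 11.7 FPKM), Col4a1 (12.7 and 75.5 FPKM) and Lama1 (6.38 and 39.7 FPKM) led them. Gata4 had 4.16 and 18.7 FPKM and Sox17 had 1.41 and 7.70 FPKM. The summed level was 1185 and 2373 FPKM, or 208.0 and 870.0 FPKM without Apoe. Of the 17, 4 passed the minimum only through the KLF3-overexpressing cells. With a minimum of 5 FPKM fewer markers were tested, and 8 were upregulated, which was all of them but Apoe (log2 difference 0.62). In this experiment 4 of the 9 members were upregulated, or 1 with columns scaled to the same sum. Their part in the differences of the cathepsin genes was not tested, and in such bulk samples more cells of a type and more RNA per cell cannot be told apart.

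Other cell types were checked as well. Of 6 trophoblast markers tested in sorted cells, 3 were upregulated and 1 downregulated, and of 8 tested in overexpressing cells, 4 were upregulated, beside 13.8% and 6.60% of all genes. The keratin genes Krt8 and Krt18 and the placental gene Plac1 had the largest differences in both experiments, from 2.25 to 3.75. Hand1, a trophoblast regulator, was upregulated with KLF3 (0.83 and 4.16 FPKM), whereas Ascl2 was downregulated in sorted cells (2.73 and 0.81 FPKM), Tfap2c had differences of -0.94 and -0.95, and Cdx2 stayed at or below 0.6 FPKM in all 4 groups. Plac1 (0.1 FPKM in negative and 0.19 FPKM in GFP-overexpressing cells) passed the minimum only through the cells where it was high. The same held for Hand1 in overexpressing and Ascl2 in sorted cells. Macrophages are rich in cathepsins, and 4 of 12 macrophage markers were listed in each table, without Ptprc. Their summed level was 5.72 and 17.0 FPKM in sorted and 13.2 and 9.97 FPKM in overexpressing cells. Csf1r, the defining receptor, had 0.15 and 0.16 FPKM in sorted cells and was not listed for overexpressing cells, Mrc1 was at or below 0.14 FPKM in all 4 groups, Fcer1g at or below 1.63 FPKM, and most of the sum came from Cd68, itself a lysosomal membrane protein (4.50 and 15.0 FPKM in sorted and 12.7 and 8.64 FPKM in overexpressing cells). Of 12 fibroblast and feeder markers, 5 and 7 were listed, with summed levels of 6.07 and 6.47 FPKM in sorted and 24.3 and 13.9 FPKM in overexpressing cells, and Col1a1 had 0.23 and 0.29 FPKM in the latter. In sorted cells 2 macrophage markers and 1 fibroblast marker were tested. Of these, Cd68 was upregulated (log2 difference 1.54), beside 13.8% of all genes tested, and none was downregulated. With KLF3 overexpression 1 macrophage and 3 fibroblast markers were tested. Of these, Fbln1 was downregulated (19.3 and 7.79 FPKM), beside 10.1% of all genes tested. Fbln1 was within the limit with quantile normalization or the span trend removed. The part of these cells in the cathepsin differences was not tested.

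Further cathepsin genes were looked for in both tables. Of 5 other cathepsins (Ctse, Ctsg, Ctsk, Ctss and Ctsw), none was listed for sorted cells. In overexpressing cells Ctsw had 0.83 and 0.82 FPKM and Ctss, the cathepsin of antigen-presenting cells, had 0.20 FPKM with GFP and 0.1 FPKM with KLF3. None of 9 cathepsin genes of the rodent placenta was listed in either table. The strand setting of the counting is not given in the sources used here, so reads of a member and of a gene overlapping it on the other strand may not be told apart. None of the 4 listed genes of this kind was upregulated in sorted cells, beside 13.8% of all genes tested. Neurl2 (log2 difference -1.06) and Nelfcd (-1.03) were downregulated, beside 8.32% of all genes tested. The part of overlapping reads in the differences of the members was not tested. Pltp and Neurl2, which overlap Ctsa, had 6.66 and 5.88 FPKM and 8.14 and 3.37 FPKM, Fdft1, which overlaps Ctsb, had 13.8 and 16.1 FPKM, and Nelfcd, which overlaps Ctsz by 10 bases, had 33.6 and 16.0 FPKM. With KLF3 overexpression the differences of these 4 genes lay between -0.46 (Fdft1) and 0.57 (Neurl2). Ctsl and Ctsc are also overlapped on the other strand, by the noncoding models Gm47123 (1971 bases) and Gm26522 (4743 bases). Levels are given for protein-coding genes only, so the part of these 2 models could not be examined.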

How the data were processed

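Libraries were prepared from 500 sorted cells per sample by Smart-seq2 or from poly(A) RNA. The authors aligned reads to mm10 with STAR (2.6.0 in the submitters' processing notes, another version in the methods) using the GENCODE annotation, computed FPKM with Cufflinks (2.2.1), and deposited FPKM as 1 mean of 2 samples per group, restricted to protein-coding genes, rounded to 2 decimals and never below 0.1. Depth, counting strand and replicate spread are not given in the sources used here, and whole reads cannot be recovered from such means.

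From these FPKM, differences of log2(FPKM + 1) were computed with pandas 2.3.3 within each table where the mean reached 1 FPKM. The side of a 2-fold limit stands in for a test, also where alternatives are compared. The highest locus was kept for identifiers listed more than once. The study's own test needs counts, so no test was run. The limma fits planned for single samples, with and without a replicate block, and leaving out each replicate could not be run on means. Alternatives were a pseudocount of 0.1, a floor of 0.1, no minimum, a minimum of 5 FPKM, median-ratio scaling, quantile normalization, columns scaled to the same sum and removal of a lowess trend with genomic span (fraction 0.3, statsmodels 0.14.6). The scripts were tested on simulated data. The members, and 13 further gene lists written by hand, were chosen with earlier results of these data known. Named are the members, Klf3, defining markers, Y-linked genes and the 3 largest differences of each list. Values of 1 such hydrolase gene are left out of the text. Promoter windows came from RefSeq (GRCm38.p6) and gene models from GENCODE M21, on the same assembly as mm10.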

Additional observations from a re-analysis of the deposited data

How the results depend on the processing

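In sorted cells, the number of upregulated members (8) and downregulated members (0) and the call of every member were unchanged under all 8 alternatives run, except that Ctsf did not pass a minimum of 5 FPKM. In overexpressing cells the results depended on the scaling. With columns scaled to the same sum, the median difference of all genes went from -0.18 to -0.58, the number of upregulated members from 4 to 1 (Ctsh), and the median of the members from 0.35 to -0.051. Ctsl (0.998), Lgmn (0.81) and Ctsz (0.78) then fell short of the limit, and Ctsc (-0.051) and Ctsd (-0.34) reversed. Quantile normalization reversed Ctsd (-0.23) and put Ctsz at 0.95. Ctsb reversed with median-ratio scaling (0.069) and with the span trend removed (0.10). Read against the median of all genes in the same setting, 4 members were past the limit in every setting but quantile normalization, where 3 were. Ctsh kept its call in all of them, between 3.49 and 4.03 on this relative scale. Of the counts of other lists, 36 of those in overexpressing cells and 13 of those in sorted cells moved by over 1.5 times. No paired analysis was possible because the tables hold 1 mean per group. For the same reason leaving out single replicates was not run, and neither the spread between samples nor the depth could be used to limit a statement.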
